A study of Mus musculus with 59 samples.

Results

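The cortex of male mice labelled heterozygous for Mrpl40 was compared with the cortex of male mice labelled wild type. The libraries were chosen by their labelled tissue and genotype alone, which gave 16 of the 59 libraries of the study. Of these, 7 are labelled Mrpl40 -/+ with both copies of Slc25a1 (Mrpl40 het below) and 9 are labelled +/+ at both genes (wild type). Both groups therefore share the Slc25a1 +/+ label, the sex and the tissue, and each library is a different animal. The study profiled polyadenylated RNA in the cortex and hippocampus of animals carrying 1 working copy of Mrpl40, of Slc25a1, or of both. Both genes lie in the stretch of mouse chromosome 16 that matches the human 22q11.2 microdeletion. The sources used here do not give the ages of the animals, their strain or the kind of Mrpl40 mutation.

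Mrpl40 encodes MRPL40, which sits in the larger subunit of the ribosome inside mitochondria, the machine that translates the few messenger RNAs encoded by mitochondrial DNA. Those messenger RNAs code for core subunits of the respiratory chain and of ATP synthase, while the other subunits, and every protein of the mitochondrial ribosome, are encoded in the nucleus and imported. Slc25a1 encodes the carrier that exports citrate from mitochondria, where cytosolic enzymes use it for sterol and fatty acid synthesis. The mouse nuclear genome also holds old copies of mitochondrial DNA, annotated as pseudogenes, some of which are letter for letter the same as the mitochondrial genes.

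Total counts per library ranged from 24068959 to 31854093 in wild type and from 26587179 to 32120906 in Mrpl40 het, so that depth was alike in both groups. No pair of the 16 libraries agreed within sampling noise. Values below are CPM, the count of a gene scaled by library size and a TMM factor, and changes are log2 fold changes of Mrpl40 het over wild type with their standard error (SE). A gene is said to rise or fall where its adjusted p in edgeR's quasi-likelihood test was under 0.05 over 20394 tested genes.

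The Mrpl40 count did not separate the groups. Mrpl40 lay between 15.9 and 20.4 CPM in wild type, with a median of 17.0, and between 15.3 and 19.1 CPM in Mrpl40 het, with a median of 17.4. The groups overlapped and only 2 of the 7 Mrpl40 het libraries lay below all wild-type libraries. The log2 fold change was -0.043 ± 0.061 (SE), with an adjusted p of 0.915 in edgeR's test. Gene counts therefore give no check of the Mrpl40 label, and genotypes are given as labelled throughout. Slc25a1 lay between 21.6 and 24.5 CPM in Mrpl40 het. In wild type it ran from 12.0 to 26.1 CPM with a median of 23.7, because animals 6 and 7 held 12.6 and 12.0 CPM, near the lowest library labelled Slc25a1 het (10.9 CPM), which goes against their label. Results that rest on these 2 animals are given with and without them. The plot of both targeted genes shows this spread.

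**Figure D1:**
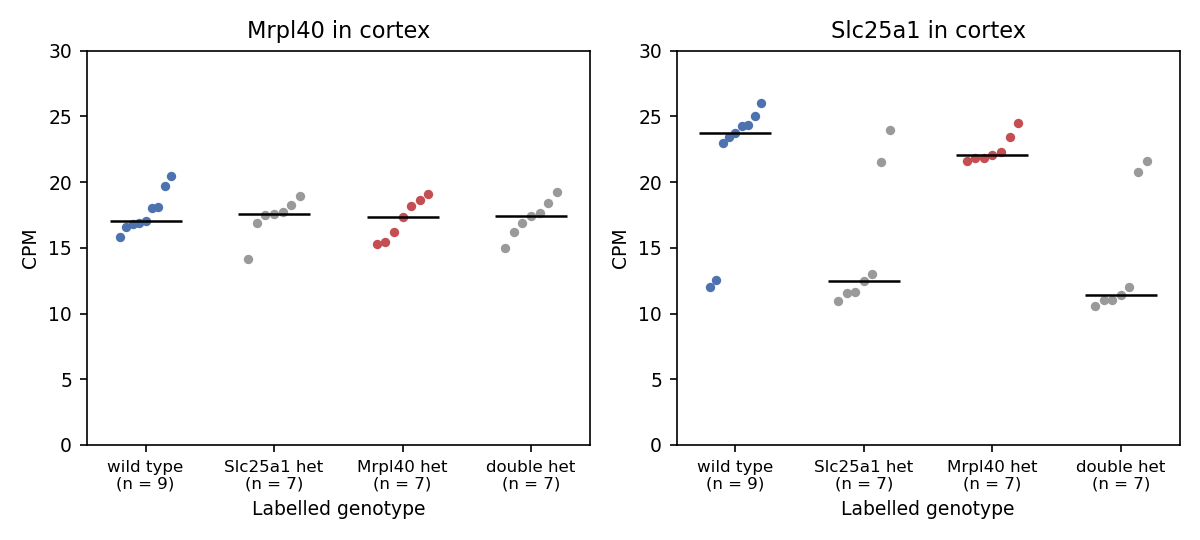
CPM of Mrpl40 (left) and Slc25a1 (right) in each of the 30 cortex libraries by labelled genotype; each point is 1 library and each bar the group median. Mrpl40 medians of wild type and Mrpl40 het are 17.0 and 17.4 CPM; for Slc25a1, 2 wild-type libraries lie far below the others of their group, and all 7 Mrpl40 het libraries lie between 21.6 and 24.5 CPM.

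Very few genes differed. In edgeR's test 6 genes passed, which is 0.0294% of the genes tested: 5 rose (0.0245%) and 1 fell (0.0049%). At an unadjusted p under 0.05 there were 1416 genes (6.94%), 622 higher (3.05%) and 794 lower (3.89%). All 5 genes that rose are nuclear copies of mitochondrial genes on chromosome 1, and the gene that fell is Gm7331, a processed pseudogene on chromosome X. No protein-coding gene passed in this fit. Without wild-type animals 6 and 7 the count was 8, with the copies Gm13340 and Gm28438 added to the 6. Leaving out 1 library at a time gave 4 to 10 genes: without Mrpl40 het replicate 2 protein-coding genes joined, among them C1qa, Rps16 and Uqcr11, which were lower, and without Mrpl40 het replicate 6 the calls of Gm28661 and Gm7331 were lost (both at an edgeR adjusted p of 0.0579). Protein-coding genes joined in other fits as well: Pld5 without Mrpl40 het replicate 1, 4 or 7 or wild-type replicate 3, Rchy1 and 1 other without Mrpl40 het replicate 5, and Obsl1 without wild-type replicate 7. With all libraries, Rchy1 passed with offsets for length and GC content (edgeR adjusted p 0.00605) and with DESeq2 size factors (0.042). Pld5 passed with the replicate number as a block (edgeR adjusted p 0.00921), Uqcr11 with 2 surrogate variables (0.00711) and Obsl1 with no filter on low counts (0.0353). The DESeq2 Wald test, also with all libraries, was run on 41503 genes, without the filter on low counts. That test called 23 genes, among them C1qa (adjusted p 0.0184), Rps16 (0.0088), Rchy1 (0.00416) and Pld5 (0.00479).

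The 5 risen copies match 5 different mitochondrial genes. Gm28439 matches mt-Nd4 and Gm10222 matches mt-Nd4l, which encode subunits of complex I. Gm28437 and Gm28661 match mt-Co3 and mt-Co2, subunits of complex IV, and Gm10925 matches mt-Atp6, a subunit of ATP synthase. Each is identical to its mitochondrial gene over the whole pseudogene transcript, from 294 bases for Gm10222 to 876 bases for Gm28439. They stand in 1 block on chromosome 1 with a pair of further copies, in the order Gm28439, Gm10222, Gm28438, Gm28437, Gm10925, Gm28661 and Gm29216. Gm28438 (matching mt-Nd3) and Gm29216 (matching mt-Co1) differ from the mitochondrial gene by 1 base each over the aligned bases. For Gm29216 these were 483 of the 492 bases of its transcript. On chromosome 2, Gm13340 matches mt-Co1 with 37 mismatches in 1545 bases. Stretches of 60 bases from the transcripts of the GENCODE vM21 annotation (GRCm38) are shown beside the mitochondrial genes, with capitals at the bases that differ. That of Gm28438 holds its only mismatch, and that of Gm13340 was picked for the most mismatches:
Gm28439: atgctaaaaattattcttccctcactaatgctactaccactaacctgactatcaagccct
mt-Nd4: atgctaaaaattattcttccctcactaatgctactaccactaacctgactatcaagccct
Gm10925: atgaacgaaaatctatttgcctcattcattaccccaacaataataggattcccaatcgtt
mt-Atp6: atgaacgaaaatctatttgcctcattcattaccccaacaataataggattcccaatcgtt
Gm28661: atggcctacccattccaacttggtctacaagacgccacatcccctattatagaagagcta
mt-Co2: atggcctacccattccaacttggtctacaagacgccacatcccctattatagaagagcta
Gm28438: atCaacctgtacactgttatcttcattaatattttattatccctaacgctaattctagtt
mt-Nd3: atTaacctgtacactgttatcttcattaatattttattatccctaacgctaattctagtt
Gm13340: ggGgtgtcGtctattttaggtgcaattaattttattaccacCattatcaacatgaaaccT
mt-Co1: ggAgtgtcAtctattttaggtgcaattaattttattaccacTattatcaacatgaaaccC

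All 37 mitochondrial gene rows of the count table hold 0 in every library, although such transcripts are known to be abundant in brain. A read from a stretch like those of Gm28439, Gm10925 or Gm28661 has the same letters in both places, so that counts of the nuclear copy and of the mitochondrial messenger RNA cannot be told apart. Which of them the counts come from was not tested.

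Gm28439 lay between 798 and 958 CPM in wild type, with a median of 861, and between 1015 and 1167 CPM in Mrpl40 het, with a median of 1102. Every Mrpl40 het library lay above every wild-type library, and the log2 fold change was 0.32 ± 0.041 (SE), with an adjusted p of 2.34e-05 in edgeR's test. Gm10925 ran from 2180 over a median of 2272 to 2599 CPM in wild type and from 2651 over 2914 to 3121 CPM in Mrpl40 het. Here too the groups did not overlap, and the log2 fold change was 0.32 ± 0.041 (SE; edgeR adjusted p 2.34e-05). Gm10222, the shortest of the 5, ran from 180 over 194 to 229 CPM in wild type and from 232 over 250.1 to 265 CPM in Mrpl40 het. It did not overlap either, at 0.32 ± 0.046 (SE; edgeR adjusted p 0.000177).

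The copies of the complex IV genes mt-Co3 and mt-Co2 rose too. Gm28437 lay between 1206 and 1377 CPM in wild type (median 1310) and between 1356 and 1606 CPM in Mrpl40 het (median 1521). Only replicate 3 of Mrpl40 het reached into the wild-type range, and the log2 fold change was 0.24 ± 0.042 (SE; edgeR adjusted p 0.00669). Gm28661 lay between 1437 and 1666 CPM in wild type (median 1492) and between 1659 and 1887 CPM in Mrpl40 het (median 1800). Again 6 of 7 Mrpl40 het libraries lay above all wild-type libraries, at 0.22 ± 0.040 (SE; edgeR adjusted p 0.0106).

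The annotation holds 11 measured nuclear copies with at least 95% identity, and the 6 that did not pass were also above 0. Gm28438 was at 0.29 (edgeR adjusted p 0.081), Gm13340 at 0.28 (0.0752) and Gm29216 at 0.15 (0.19). Gm4076 on chromosome 13 was at 0.21, and Gm13339 and Gm13341 on chromosome 2 at 0.18 and 0.028, none with a group mean above 11.9 CPM per kilobase. Scaled by transcript length, the mean wild-type level ran from 2.42 CPM per kilobase for Gm4076 to 3422 for Gm10925. Summed over 9 of these copies, all but Gm13339 and Gm4076, the level was 6936 to 8032 CPM in wild type (median 7225) and 8136 to 9361 CPM in Mrpl40 het (median 8977), with no overlap between the groups.

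**Figure D2:**
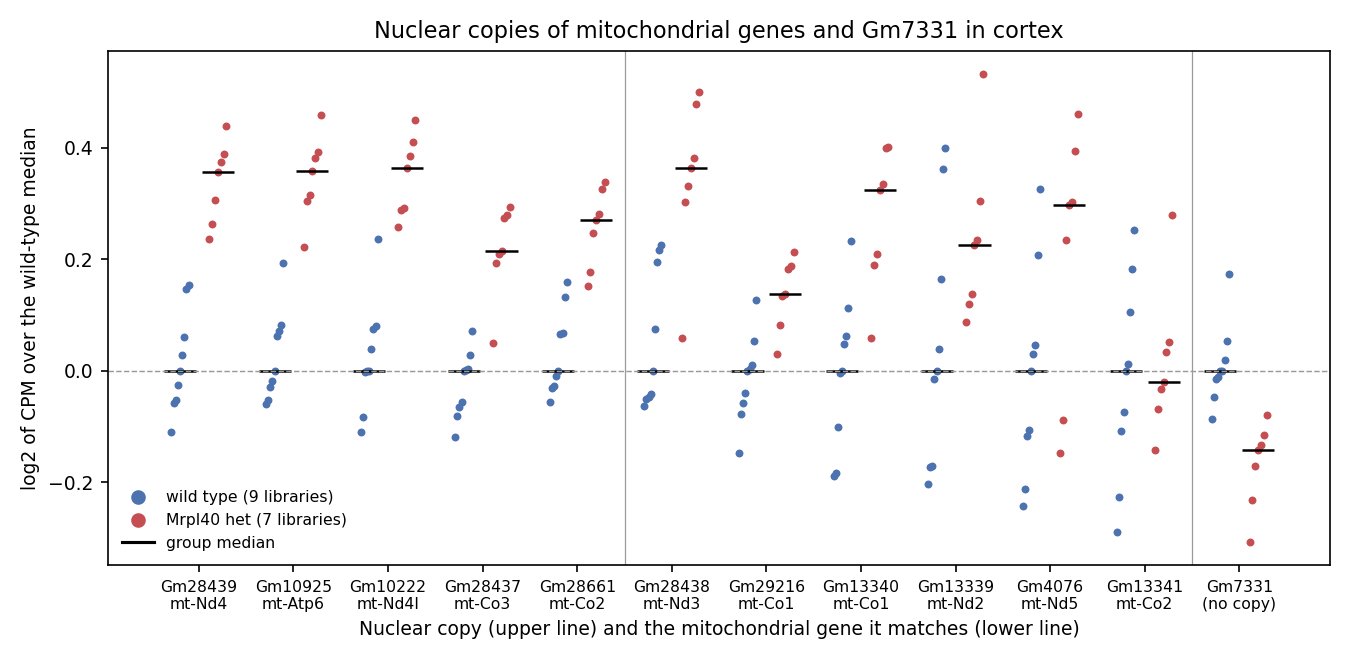
Level of 11 nuclear copies of mitochondrial genes and of Gm7331 in each cortex library, as log2 of CPM over the wild-type median of that gene; each point is 1 library and each black bar a group median. The 5 copies left of the first line rose and Gm7331 right of the second line fell; Gm28439, Gm10925 and Gm10222 show no overlap between the 9 wild-type and the 7 Mrpl40 het libraries.

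The same copies were higher than in the other single heterozygote. Mrpl40 het cortex was compared directly with the 7 cortex libraries labelled Slc25a1 het (Mrpl40 +/+, Slc25a1 -/+), in the fit of all 4 cortex genotypes, where wild-type libraries add to the estimate of the spread. Of the Slc25a1 het libraries, those of animals 12 and 13 held 21.5 and 24.0 CPM of Slc25a1, which goes against their label. Of 20394 genes 5 passed (0.0245%), and they were Gm28439, Gm10925, Gm10222, Gm28437 and Gm28661, all higher in Mrpl40 het; at an unadjusted p under 0.05 there were 1145 genes (5.61%). The log2 differences were 0.30, 0.29, 0.33, 0.26 and 0.23 in that order, with edgeR adjusted p from 0.000423 to 0.0184. Gm28439, for example, averaged 1089 CPM in Mrpl40 het and 885 CPM in Slc25a1 het, where its highest library held 945 CPM. Chrna7, which encodes a subunit of a nicotinic acetylcholine receptor, came next with 4.94 against 3.44 CPM and a log2 difference of 0.52 (edgeR adjusted p 0.089). Without the 6 cortex animals whose Slc25a1 level goes against their label, the calls of Gm28437 and Gm28661 were lost. Gm28439, Gm10222 and Gm10925 passed, and Chrna7 (0.57, edgeR adjusted p 0.0305) joined them. Slc25a1 passed there too (0.91), but the animals were left out by their Slc25a1 level, so this is no separate result. With only the libraries of both single heterozygotes in the fit, 3 genes passed, again Gm28439, Gm10222 and Gm10925.

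Hippocampus was sequenced from 15 of these 16 animals. There Gm10222 was the only gene of 20162 to pass (0.00496%), at 0.42 ± 0.064 (SE; edgeR adjusted p 0.00421), beside 1651 genes (8.19%) at an unadjusted p under 0.05. Gm28439 was at 0.35 (edgeR adjusted p 0.0581), Gm10925 at 0.35 (0.117), Gm28437 at 0.32 (0.121) and Gm28661 at 0.23 (0.587). The difference between the tissues was tested with the animal as a block in 29 animals. No gene of 21354 passed (0%), the smallest adjusted p was 0.829 in edgeR's test, and 1244 genes (5.83%) had an unadjusted p under 0.05. For Gm10222 the cortex value minus the hippocampus value was -0.12 ± 0.086 (SE).

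Gm7331 was the single gene that fell. It lay between 43.7 and 52.3 CPM in wild type (median 46.4) and between 37.5 and 43.9 CPM in Mrpl40 het (median 42.0), with 6 of 7 Mrpl40 het libraries below all of wild type. The log2 fold change was -0.18 ± 0.035 (SE; edgeR adjusted p 0.0342). This call was less stable than those of the copies, since it passed in 5 of 16 fits that each left out 1 library, with adjusted p up to 0.152. Against Slc25a1 het the difference was -0.019, and in hippocampus it was -0.0073. Gm7331 was also below wild type in Slc25a1 het cortex, at -0.16 ± 0.035 (SE; edgeR adjusted p 0.961). In cortex labelled heterozygous for both genes it was at -0.22 ± 0.035 (SE; edgeR adjusted p 0.00573).

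**Figure D3:**
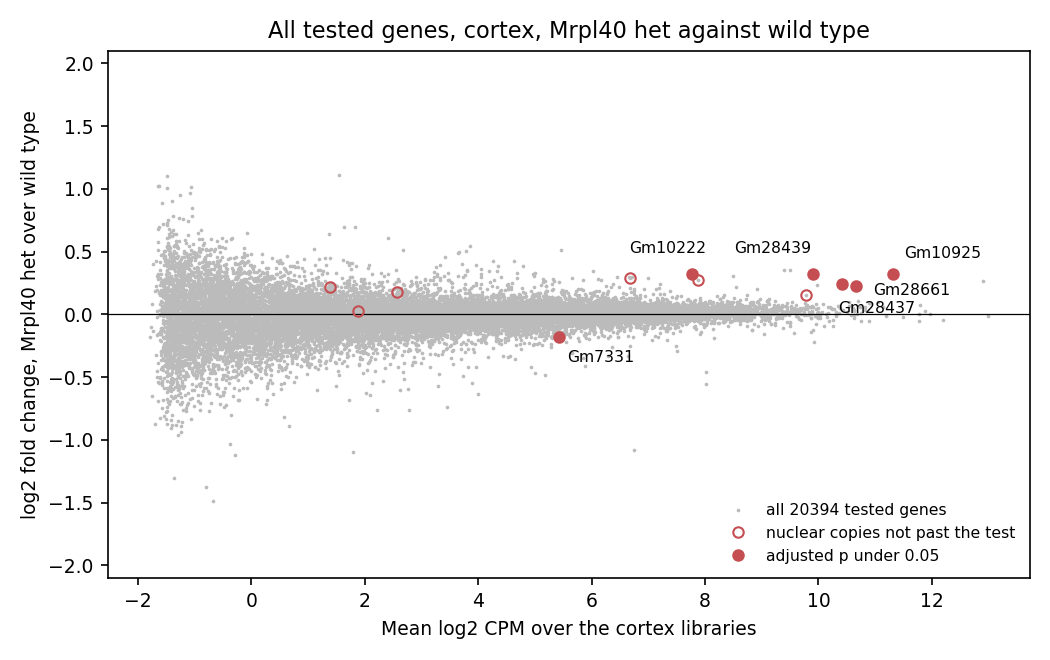
log2 fold change of Mrpl40 het over wild type against the mean log2 CPM for each of the 20394 genes tested in cortex; each grey point is 1 gene, filled red points passed edgeR's test and open red points are nuclear copies that did not. The 5 risen copies lie between 0.22 and 0.32 at high expression, inside the spread that genes of low expression show.

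Beyond these 6, the protein-coding genes with the smallest p are given by their values. Rchy1, which encodes an E3 ubiquitin ligase, lay between 28.2 and 30.6 CPM in wild type (median 30.0) and between 31.6 and 34.5 CPM in Mrpl40 het (median 33.1). Its groups did not overlap, but at 0.16 ± 0.033 (SE) its adjusted p in edgeR's test was 0.0533. In hippocampus it was at 0.029. Groups without overlap were found for 8 genes (0.0392% of those tested, of which 7 were higher, 0.0343%): the copies Gm28439, Gm10925 and Gm10222, and Rchy1, Zmat3, BC030336, Pcnt and, on the lower side, Apoe. Zmat3 encodes an RNA-binding protein regulated by p53 and was at 0.13, Pcnt encodes a scaffold of the centrosome and was at 0.11, and BC030336 was at 0.11. Pld5 ran from 4.04 over 4.35 to 5.95 CPM in wild type and from 4.97 over 6.72 to 10.3 CPM in Mrpl40 het. It was at 0.61 ± 0.13 (SE; edgeR adjusted p 0.0669) and at -0.17 in hippocampus.

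Further higher genes of that rank were Sept6, Zfp536, Pcdhb22, Tspan5, Pole3 and Cfl2, with log2 fold changes from 0.11 (Cfl2, an actin-severing protein) to 0.18 (Pole3, a subunit of a DNA polymerase) and edgeR adjusted p of at least 0.311. On the lower side, Rps16, a protein of the small cytosolic ribosomal subunit, ran from 37.1 over 39.7 to 42.7 CPM in wild type and from 33.1 over 34.3 to 38.0 CPM in Mrpl40 het. It was at -0.19 ± 0.040 (SE; edgeR adjusted p 0.0699). Obsl1, a cytoskeletal adaptor, was at -0.24 (0.0752), H2afj, a histone H2A variant, at -0.42 (0.124), and Bax, a pore-forming protein of mitochondrial cell death, at -0.20 (0.13). Sox18, a transcription factor of endothelial cells, was at -0.53 (0.15), Ramp1 at -0.16 (0.156) and Tmem158 at -0.23 (0.24). Uqcr11, a subunit of complex III, was at -0.19 (0.111) and Ndufa13, a subunit of complex I, at -0.14 (0.177). None of these passed edgeR's test in the main fit. The DESeq2 Wald test with all libraries called Rps16 (adjusted p 0.0088), H2afj (0.0135), Obsl1 (0.0153), and Bax, Uqcr11 and Sox18 (0.028 each). It also called Ramp1 (0.0403) and Ndufa13 (0.0421).

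The mitochondrial ribosome, of which MRPL40 is a part, showed no gene past the test. Of 50 tested genes of its large subunit 13 were above 0 and 37 below, with a median log2 fold change of -0.027 and a range from -0.15 to 0.074, against a median of -0.0020 over all genes tested. Mrpl57 had the smallest p, with 14.1 to 18.8 CPM in wild type (median 16.0), 13.7 to 15.3 CPM in Mrpl40 het (median 14.5) and a log2 fold change of -0.15 ± 0.053 (SE; edgeR adjusted p 0.576). Of the small subunit 10 of 32 were above 0 and the median was -0.040, with Mrps26 at -0.11 and Mrps24 at -0.23. In hippocampus the medians of both subunits were 0.0042 and -0.015. Summed over the large subunit, wild-type libraries held 1207 to 1287 CPM and Mrpl40 het libraries 1201 to 1285 CPM, ranges that nearly coincide.

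Factors that build and serve this ribosome gave the same count of 0 past the test. Of 24 assembly factors 10 were above 0, with a median of -0.0085; among them Ngrn was at -0.14 and Malsu1, which binds the large subunit, at -0.19. Of 35 translation factors and mitochondrial tRNA synthetases 12 were above 0 (median -0.022). Lars2, the mitochondrial leucyl-tRNA synthetase, was the farthest from 0 on the higher side at 0.35 ± 0.19 (SE), but its level varied within groups, from 343 to 814 CPM in wild type and from 506 to 984 CPM in Mrpl40 het. Of 30 genes for replication, transcription and processing of mitochondrial DNA and RNA 19 were above 0 (median 0.016), with Ssbp1, which coats single-stranded mitochondrial DNA, at -0.13 and Grsf1, a protein of mitochondrial RNA granules, at 0.077.

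None of the nuclear subunits of the respiratory chain rose beside the copies. Complex IV, whose mitochondrial subunits include the products of mt-Co2 and mt-Co3, had 1 of 16 nuclear subunits above 0 and a median of -0.078. Cox6b1 ran from 124 over 129 to 139 CPM in wild type and from 118 over 119 to 129 CPM in Mrpl40 het, at -0.10 ± 0.031 (SE; edgeR adjusted p 0.493). Cox6a1 was at -0.081. Summed over complex IV, wild-type libraries held 1504 to 1608 CPM and Mrpl40 het libraries 1447 to 1632 CPM, with 5 Mrpl40 het libraries below all of wild type and replicate 2 above all of them. Complex I had 10 of 36 above 0 (median -0.030, with Ndufa7 at -0.15), complexes II and III 6 of 13 (median -0.016, with Uqcrq at -0.095) and ATP synthase 10 of 19 (median 0.0030, with Atpif1, its inhibitory factor, at -0.10). None of these genes passed the test.

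Cytosolic ribosomal protein genes were also mostly below 0, with 17 of 81 above 0 and a median of -0.051. At an unadjusted p under 0.05 there were 18 lower and 0 higher, 22.2% of the list against 3.89% of all genes on the lower side; Rps2, for example, was at -0.18 ± 0.046 (SE; edgeR adjusted p 0.318). Their summed level was 5183 to 5641 CPM in wild type and 4902 to 5861 CPM in Mrpl40 het, where replicate 2 was the highest of all 16 libraries and 4 others were below all of wild type. Across 19845 genes with an annotated length the log2 fold change correlated with transcript length at a Spearman rho of 0.14 and with GC content at -0.11. The median was -0.031 over the 3966 shortest genes and 0.014 over the 3969 longest. When the fit allowed for trends with length and GC content, the medians were -0.032 for complex IV, -0.021 for cytosolic ribosomal proteins, 0.0017 for complex I and -0.013 and -0.022 for the large and small subunits of the mitochondrial ribosome. The median of the copies was 0.28 in that fit. Without Mrpl40 het replicate 2 the medians were -0.089 for cytosolic ribosomal proteins, -0.099 for complex IV and -0.056 for complex I. That library had the highest summed level of Mrpl40 het for each of these lists, so leaving it out favours lower medians.

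Genes that respond to mitochondrial stress were mostly below 0. Of 30 ATF4 targets and mitochondrial chaperones 6 were above 0, the median was -0.047 and none passed; Nupr1, a stress-induced regulator, was at -0.29 and Htra2, a protease between the mitochondrial membranes, at -0.092. Without wild-type animals 6 and 7 the median was -0.0074. Of 20 genes of mitochondrial calcium handling, 11 were above 0 (median 0.0064). Citrate cycle and citrate use had 18 of 25 above 0 (median 0.020), with Idh2 at -0.13 and Acly, which splits exported citrate, at 0.073. Glycolysis had 12 of 20 above 0 (median 0.0082). Cholesterol synthesis had 20 of 23 above 0 with a median of 0.068; Hsd17b7 ran from 22.4 over 24.1 to 28.9 CPM in wild type and from 25.1 over 26.3 to 28.8 CPM in Mrpl40 het, at 0.14 ± 0.046 (SE; edgeR adjusted p 0.544). In hippocampus the median of cholesterol synthesis was 0.0076.

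The genes of the chromosome 16 region that holds Mrpl40 did not move as a block. Of 35 tested genes, Mrpl40 and Slc25a1 among them, 17 were above 0 and 18 below. The median was -0.0027 and none passed the test. Scarf2, a scavenger receptor, was at -0.36 ± 0.15 (SE) and Cldn5, the tight junction protein of brain vessels, at -0.21 ± 0.086 (SE), with adjusted p of 0.662 and 0.664 in edgeR's test.

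**Figure D4:**
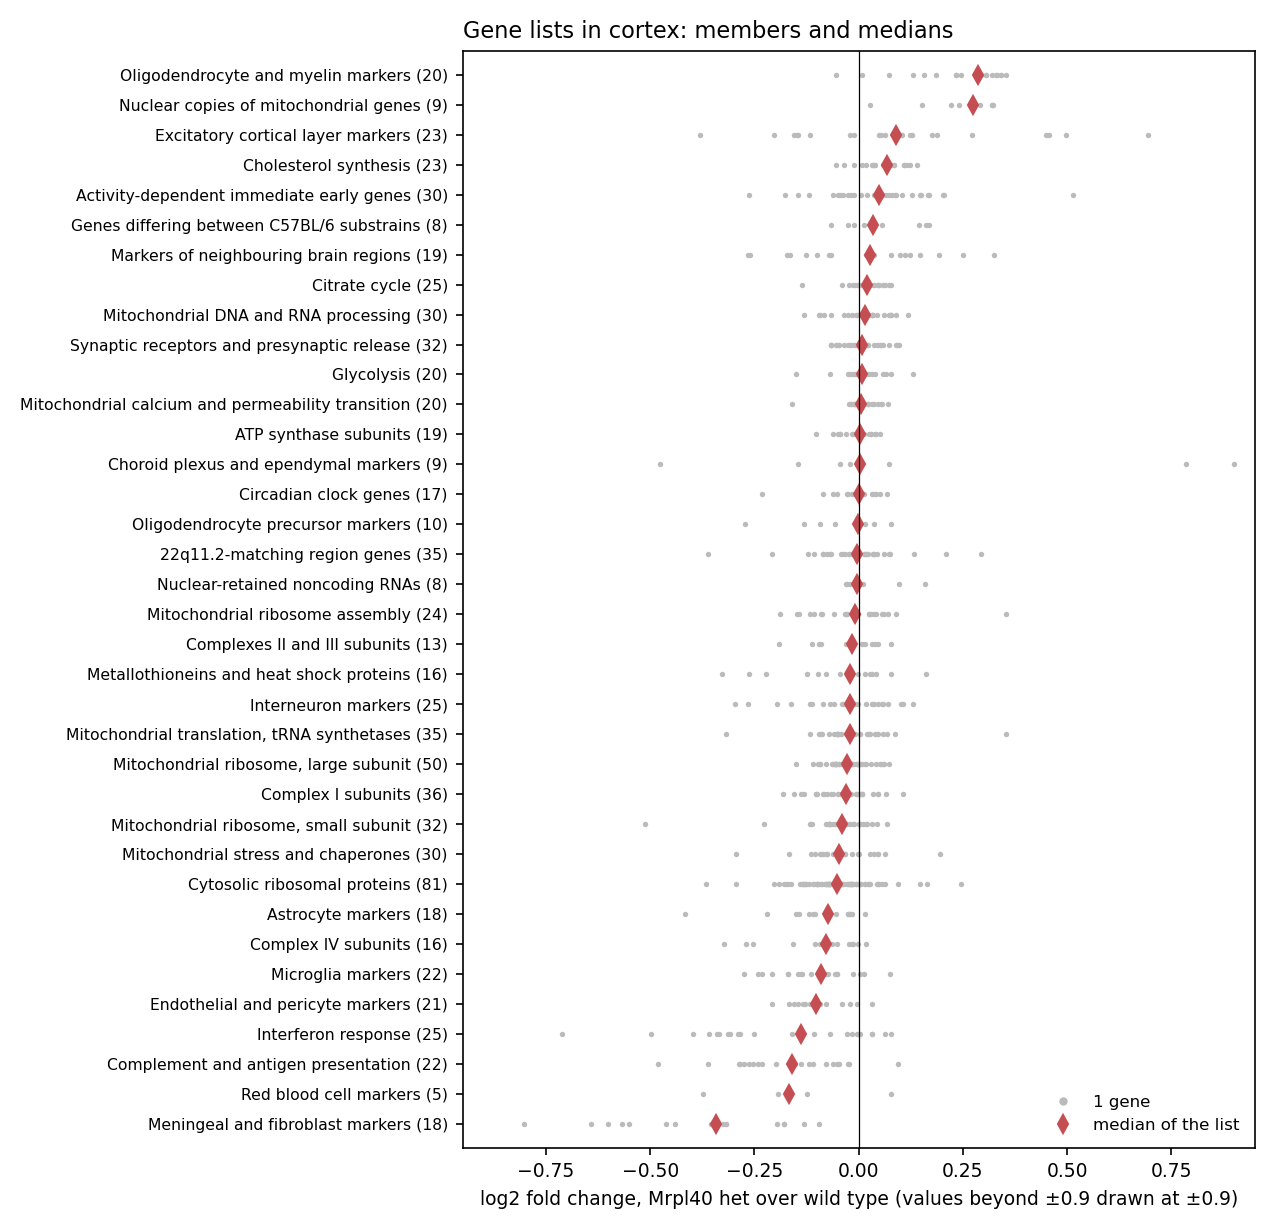
log2 fold change of Mrpl40 het over wild type for the tested members of 36 gene lists (grey points, number of genes in parentheses) and the median of each list (red diamonds). Medians of lists of the mitochondrial ribosome, respiratory chain and metabolism lie between -0.078 and 0.068, while the nuclear copies are at 0.28, oligodendrocyte markers at 0.29 and meningeal markers at -0.34.

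The levels of every cell type list overlapped between the groups. In bulk tissue, fewer cells of a type and less RNA per cell cannot be told apart. Snap25, a presynaptic membrane protein of neurons, was at 3160 CPM or more in every library, and Mbp, a myelin protein, averaged 934 CPM in wild type. Markers of mature oligodendrocytes had 19 of 20 above 0 and a median of 0.29. Their summed level ran from 2206 over 2812 to 3319 CPM in wild type and from 2079 over 3246 to 4418 CPM in Mrpl40 het. Mrpl40 het held both the lowest library (replicate 1) and the 3 highest of all 16, so that the groups overlapped. Tspan2, a tetraspanin of myelin, was at 0.34 ± 0.14 (SE) and Gpr37 was at 0.28 ± 0.12 (SE), neither past the test. Without Mrpl40 het replicate 2, the library with the most myelin marker counts, the median was 0.18. In hippocampus the median of these 20 genes was -0.060.

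All 18 markers of the meninges, the coverings of the brain, and of fibroblasts were below 0 with a median of -0.34, and their summed level ran from 115 over 152 to 296 CPM in wild type and from 95.1 over 125 to 189 CPM in Mrpl40 het. The highest library was wild-type replicate 8, and the lowest was Mrpl40 het replicate 2. Replicates 2, 7 and 6 of Mrpl40 het, which held the most myelin marker counts, held 95.1, 108 and 125 CPM of meningeal markers. With 2 surrogate variables in the fit the meningeal median turned to 0.094 and the oligodendrocyte median was 0.019. The nuclear copies stood at a median of 0.29 in that same fit, and at 0.33 without wild-type animals 6 and 7.

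Microglial markers were mostly below 0. Of 22 markers 3 were above 0, the median was -0.091 and 9 (40.9%) had an unadjusted p under 0.05, all lower, against 3.89% of all genes on the lower side. C1qa, a chain of complement C1q, ran from 28.1 over 29.7 to 33.1 CPM in wild type and from 19.3 over 24.5 to 30.4 CPM in Mrpl40 het. All but 1 of the Mrpl40 het libraries lay below all of wild type, at -0.28 ± 0.060 (SE; edgeR adjusted p 0.0752). The exception was replicate 2, so leaving it out takes away the only Mrpl40 het library inside the wild-type range. In that fit C1qa was at -0.33 (edgeR adjusted p 0.00436), and no other fit that left out 1 library called it. Of 22 complement and antigen presentation genes 1 was above 0 (median -0.16), with C1qb at -0.23 ± 0.062 (SE). The median of these genes was -0.117 without wild-type animals 6 and 7 and -0.0605 with 2 surrogate variables. The microglial homeostatic markers P2ry12, Cx3cr1 and Tmem119 were at -0.073, -0.058 and -0.11. Summed, the microglia markers ran from 551 to 670 CPM in wild type and from 506 to 600 CPM in Mrpl40 het.

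Interferon response genes had 6 of 25 above 0 and a median of -0.14, with Lgals3bp at -0.29 ± 0.073 (SE; edgeR adjusted p 0.261) and Oas2, an antiviral RNA sensor, at -0.71 ± 0.22 (SE). Without wild-type animals 6 and 7 the median was -0.013, while Lgals3bp stayed between -0.33 and -0.25 and Oas2 between -0.80 and -0.60 over 10 settings. Against Slc25a1 het the median of the list was -0.17. Astrocyte markers had 1 of 18 above 0 (median -0.074, and -0.040 both without wild-type animals 6 and 7 and with 2 surrogate variables). Apoe, the lipid carrier secreted by astrocytes, ran from 998 over 1030.2 to 1227 CPM in wild type and from 843 over 901 to 995 CPM in Mrpl40 het, so that the groups did not overlap, but at -0.22 ± 0.055 (SE) its adjusted p in edgeR's test was 0.24. Aldoc was at -0.15 and Gfap, the filament protein of reactive astrocytes, at -0.42 ± 0.17 (SE). Endothelial and pericyte markers had 1 of 21 above 0 (median -0.10) and red blood cell markers 1 of 5 (median -0.17). Without wild-type animals 6 and 7 these medians were -0.0727 and -0.151, and with 2 surrogate variables -0.065 and -0.0849. The part of these cell type differences in other results was not tested.

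**Figure D5:**
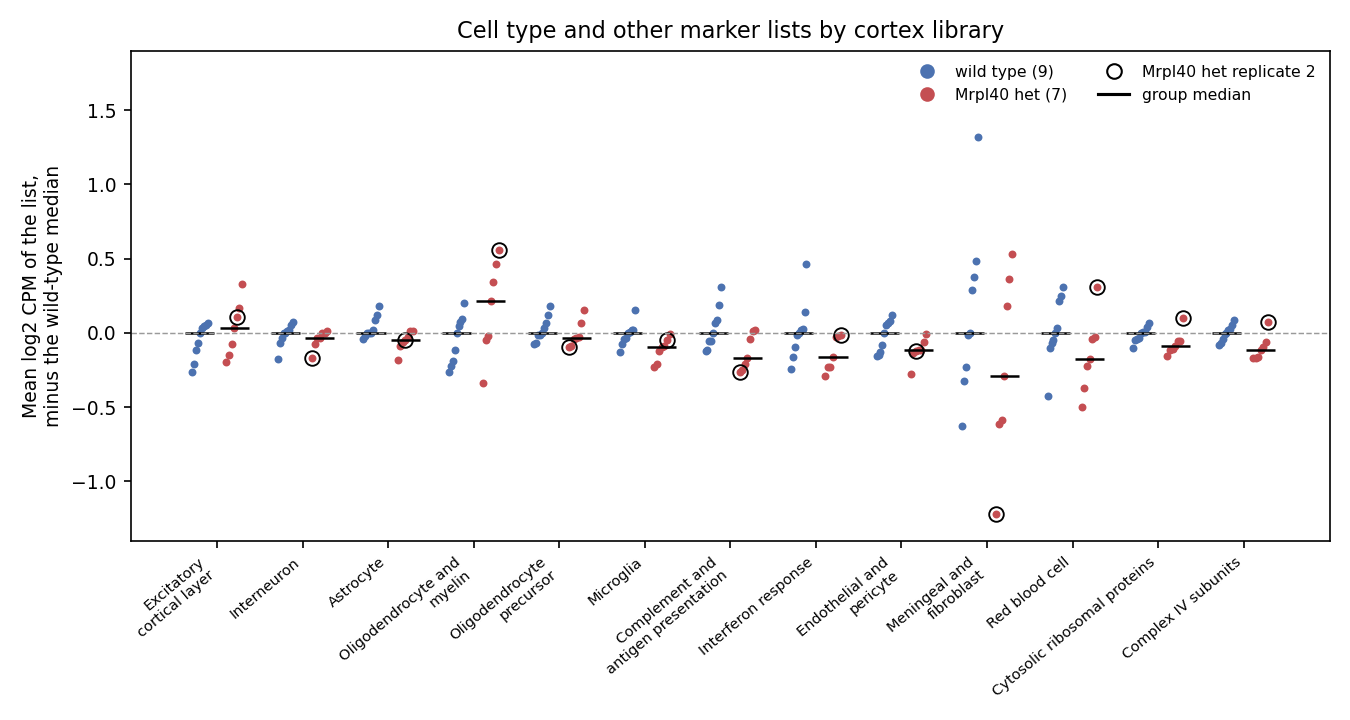
Mean log2 CPM of each marker list in each cortex library, minus the wild-type median of that list; each point is 1 library, black bars are group medians and black rings mark Mrpl40 het replicate 2. Wild type and Mrpl40 het overlap in all 13 lists, and the ringed library is the highest of Mrpl40 het for cytosolic ribosomal proteins.

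No gene of the neuronal lists passed the test. Synaptic receptors and release genes had 19 of 32 above 0 and a median of 0.0087, with Syt1, the calcium sensor of transmitter release, at 0.091. Excitatory layer markers had 15 of 23 above 0 (median 0.090) and interneuron markers 10 of 25 (median -0.021), with Cck, a neuropeptide, at -0.30 ± 0.099 (SE; edgeR adjusted p 0.56). Activity-dependent genes had 19 of 30 above 0 (median 0.049), and their summed level ranged widely in both groups, from 1653 to 4777 CPM in wild type and from 2292 to 4933 CPM in Mrpl40 het. With 2 surrogate variables the excitatory layer median was -0.0045 and the activity-dependent median 0.20.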

How the data were processed

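Poly(A) RNA of mouse cortex was sequenced as stranded paired-end libraries, per the labels' protocols. The authors deposited raw counts per gene, without normalization, as 1 column for each library. FastQC, HISAT2, featureCounts and DESeq2 and the builds mm39 and GRCm39 are named in the submitters' processing notes, with no versions. Deposited normalized values were not used. All list genes were looked up by symbol, and 865 of 869 had a row; 27 symbols stored as dates, such as that of Sept6, were restored from gene IDs.

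Groups came from the labels. Counts were tested with edgeR 4.0.16 (quasi-likelihood, TMM, filter on low counts, robust dispersion) in R 4.3.3, with the 4 cortex genotypes in 1 fit, at a false discovery rate of 0.05. The direct comparison with Slc25a1 het came from the same fit, and the tissue difference from 58 libraries with the animal as a block. Rows of blank symbols, 7074 of 57180, were tested as genes, since each carries a gene ID. Log2 CPM used a prior count of 2. P-values within a tissue set a difference against the spread between animals, estimated over all 4 genotypes. Those of the tissue difference set it against the spread left within animals.

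Named genes were Mrpl40, Slc25a1, every gene past the test, the 10 higher and 10 lower genes with the smallest p (mean log2 CPM of at least 0, no predicted gene, RIKEN clone or blank symbol) and the 2 members of each list with the smallest p. Any other gene named was picked with its values known. Some genes that this rule gives are not reported here. The comparison and the 36 lists were chosen with earlier results of these data known, so lists are described by counts and medians only. Nuclear copies were found with blastn 2.17.0 against GENCODE vM21 transcripts (GRCm38), keeping alignments of 100 bases or more with 95% identity or more; lengths, GC content and chromosomes came from the same annotation, which matched 97.3% of tested genes. Its build differs from that of the counts, so no coordinates are given. Genes that share reads with such copies are uncertain.

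Alternatives were no filter, DESeq2 size factors, a block for the replicate number, the Wald test of DESeq2 1.42.0, a fit of the 2 genotypes alone, 2 surrogate variables (sva 3.50.0), offsets for length and GC content, a fold of at least 1.2, and fits without animals at odds with their label in Slc25a1. Leaving out each library in turn was chosen after seeing the data. The steps were tested on simulated data. Files were read with the data.table package (version 1.17.8).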

Additional observations from a re-analysis of the deposited data

Results flagged for a closer look

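In 8 of 128 groups of libraries checked, 1 library lay far from the others of its group; chance flags about 1 in 20. Among genes, the lowest Mrpl40 het library for Gm28437 was replicate 3 with 1356 CPM (the nearest held 1498), and the highest for Rps16 was replicate 2 with 38.02 CPM (35.01). In wild type, Zmat3 was lowest in replicate 8 with 104.1 CPM (109.4) and Sox18 highest in replicate 6 with 8.096 CPM (5.925). Among lists, given as mean log2 CPM, cytosolic ribosomal proteins were highest in Mrpl40 het replicate 2 at 5.24 (nearest 5.09), the same library that was highest for Rps16. Activity-dependent genes were lowest in wild-type replicate 3 at 4.82 (5.86). Synaptic genes were highest in wild-type replicate 1 at 8.66 (8.59), and metallothioneins and heat shock proteins were lowest in wild-type replicate 5 at 6.12 (6.28).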

How the results depend on the processing

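Against wild type, the calls of Gm28439, Gm10925, Gm10222, Gm28437 and Gm28661 held in 9 of 10 other settings of the fit; at a fold of at least 1.2 no gene passed (0 in edgeR's glmTreat, with 138 at an unadjusted p under 0.05). The DESeq2 Wald test, run on 41503 genes without the filter on low counts, called 23 against wild type (10 higher, 13 lower) and 13 against Slc25a1 het. With only the 2 genotypes fitted, 5 genes passed against wild type and 3 against Slc25a1 het. Against Slc25a1 het the calls of Gm28437 and Gm28661 were lost in 2 of 6 other settings, that one and the fit without the 6 animals at odds with their label. Length and GC content offsets gave 9. The tissue difference had 0 calls in the fit with the animal as a block and in all 4 of its alternatives, including a fit without the animal as a block (0). The replicate number as a block gave 7 calls in both cortex comparisons, with Gm28438 and Pld5 gained in both and Gm7331 lost against wild type. Deviations of same-numbered libraries correlated from -0.354 to 0.528 over 7 pairs (median 0.137, against -0.0372 for other pairs). Of the 7 pairs 4 were over 0.1 and 1 of 7 correlated best with its own number, so the numbers were not taken to pair the animals. Leaving out 1 library gave 4 to 10 calls. Slc25a1 changed sign without wild-type animals 6 and 7 (-0.11) and without all 6 animals (-0.11), where the animals were left out by their Slc25a1 level itself. It also changed sign with 2 surrogate variables (-0.064). Among list medians, interferon response turned to 0.0029 without the 6 animals, and meningeal markers turned to 0.094 and excitatory layer markers to -0.0045 with 2 surrogate variables; the cause was not tested. At these depths, low genes such as Oas2, under 1 CPM in every library, have wide errors.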

Other observations

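Further gene groups had no member past edgeR's test in cortex. Choroid plexus and ependymal markers had 5 of 9 above 0 and a median of 0.0029, with Ttr, the thyroid hormone carrier of choroid plexus, between 0.269 and 2.64 CPM in wild type and between 1.13 and 7.93 CPM in Mrpl40 het. Circadian clock genes had 9 of 17 above 0 (median 0.0014), metallothioneins and heat shock proteins 6 of 16 (median -0.020, with Mt3 at -0.099 and Hsp90aa1 at 0.077), and nuclear-retained noncoding RNAs 4 of 8 (median -0.0044, with Malat1 at 0.097). Genes known to differ between C57BL/6 substrains had 5 of 8 above 0 (median 0.034), with Entpd4b at 0.16 and Ide at 0.17.

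Pld5, Oprk1 and Nr4a2, chosen after their values were seen, were each higher in several Mrpl40 het libraries than in any wild-type library. Oprk1, the kappa opioid receptor, ran from 1.86 over 2.39 to 4.43 CPM in wild type and from 2.59 over 3.92 to 7.77 CPM in Mrpl40 het, at 0.69 ± 0.23 (SE; edgeR adjusted p 0.563). Nr4a2, a nuclear receptor, ran from 26.2 over 36.2 to 55.1 CPM in wild type and from 26.5 over 58.8 to 84.3 CPM in Mrpl40 het, at 0.52 ± 0.26 (SE; edgeR adjusted p 0.726). Replicate 3 of Mrpl40 het was the highest library for Pld5 and Oprk1, and replicate 7 for Nr4a2.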
